A study of Arabidopsis thaliana with 16 samples.

Results

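Late embryogenesis abundant (LEA) genes were taken from the series as 52 genes named by their TAIR10 locus IDs, of 27444 nuclear protein-coding genes. They comprised 10 dehydrins, 19 genes of the LEA_4 family, 6 seed maturation proteins (SMP), 4 LEA_3, 3 LEA_1, 3 LEA_2, 3 PvLEA18, 2 LEA_5 (Em) and 2 AtM genes. The histone mark H3K27me3 was profiled by ChIP-seq in Arabidopsis (*Arabidopsis thaliana*) seedlings of the *Atsdr4l-4* and *Atsdr4l-5* deletion alleles and of wild-type Col-0, all grown with 1% sucrose, at 3 and 1 days after imbibition (DAI). Each genotype and time point had 2 replicates, so that 12 libraries were compared, 6 per time point. The alleles carry deletions within *AtSDR4L*, the Arabidopsis ortholog of the rice dormancy gene *Sdr4*, and *Atsdr4l-5* plants were bulked from backcrossed lines that had lost the Cas9 transgene. For each library the deposited file was a list of broad peaks without read counts. The value used throughout is therefore the percent of a gene body, from the annotated start to the annotated end, that lies under peaks, and a gene counted as marked in a library where this was at least 50%. A gene without a peak is one where none was called, which does not show that the mark was absent.

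LEA proteins are small, very hydrophilic and mostly disordered proteins. Many accumulate in maturing seeds as the embryo dries, and others are made in leaves and roots under drought, cold or abscisic acid (ABA). Their transcripts fall away as the seed germinates. H3K27me3 is deposited by Polycomb Repressive Complex 2 and marks repressed genes, and seedlings use it to keep seed maturation genes off. In LEA promoters, G-boxes and shorter ABA-responsive elements are bound by bZIP factors such as ABI5, and RY motifs by B3 factors such as ABI3 and the VAL repressors.

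At 3 DAI, 57.7% of the 52 LEA genes were marked on average, against 24.7% at 1 DAI. At 3 DAI the *Atsdr4l-4* libraries had 26 and 29 marked LEA genes, those of *Atsdr4l-5* 32 and 29, and those of Col-0 32 each. At 1 DAI the *Atsdr4l-4* libraries had 12 each, those of *Atsdr4l-5* 11 and 12, and those of Col-0 13 and 17. Every library of 3 DAI thus held more marked LEA genes than any of 1 DAI. Over all 27444 genes, 24.7 to 26.4% were marked at 3 DAI and 20.3 to 22.2% at 1 DAI, so the LEA share exceeded that of all genes by far more at 3 DAI than at 1 DAI. The peaks also covered more of the genome at 3 DAI, 24.9 to 28.2 Mb, against 21.3 to 25.3 Mb at 1 DAI. With equal numbers of peaks kept in each library, the difference in marked LEA genes was 17.2 per library, the same as with all peaks. The libraries already held similar numbers, 6474 to 7068 peaks, so this check could change little and did not level the covered length. The part of library depth, which is unknown, was not tested.

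**Figure D1:**
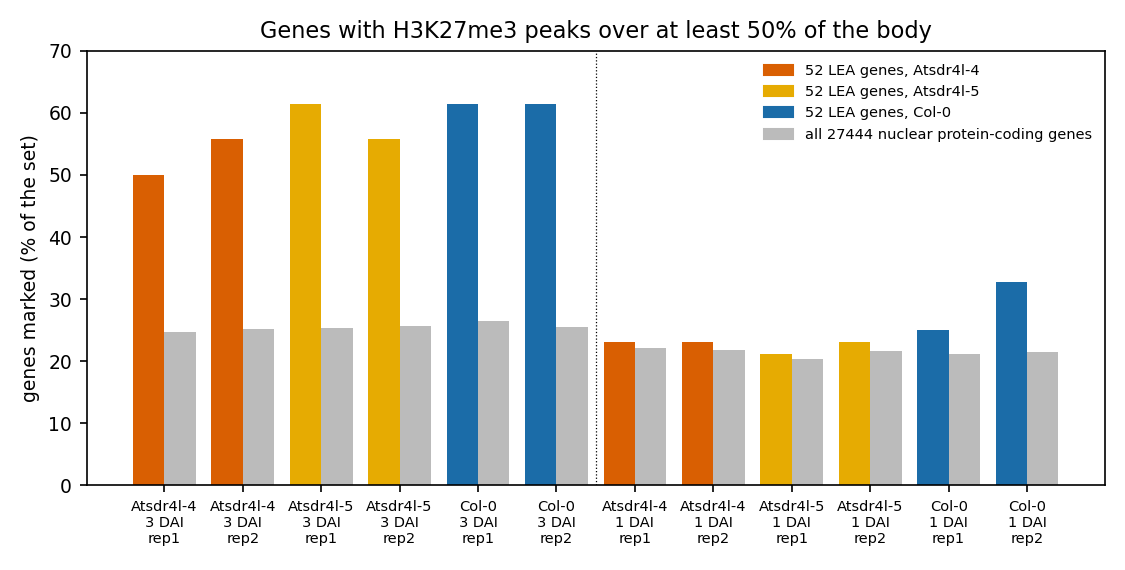
Share of genes marked in each of the 12 libraries (y axis, percent of the set), with the 52 LEA genes as coloured bars and all 27444 nuclear protein-coding genes as grey bars; the 6 libraries of 3 DAI are on the left and the 6 of 1 DAI on the right. The LEA bars lie at 50 to 61.5% at 3 DAI and at 21.2 to 32.7% at 1 DAI, while the grey bars stay between 20.3 and 26.4%.

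The 52 genes fell into 5 patterns. In 9 genes the body was marked in all 6 libraries of 3 DAI and in none of 1 DAI, which is 17.3% of the LEA genes, whereas 1.17% of all genes had this pattern. Another 9 genes, also 17.3%, were marked in all 12 libraries, a share close to the 17.8% of all genes. No peak touched 13 genes in any library, 4 genes had peaks that never reached 50% of the body, and the other 17 changed between libraries. None had the opposite pattern, marked in all libraries of 1 DAI and in none of 3 DAI.

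**Figure D2:**
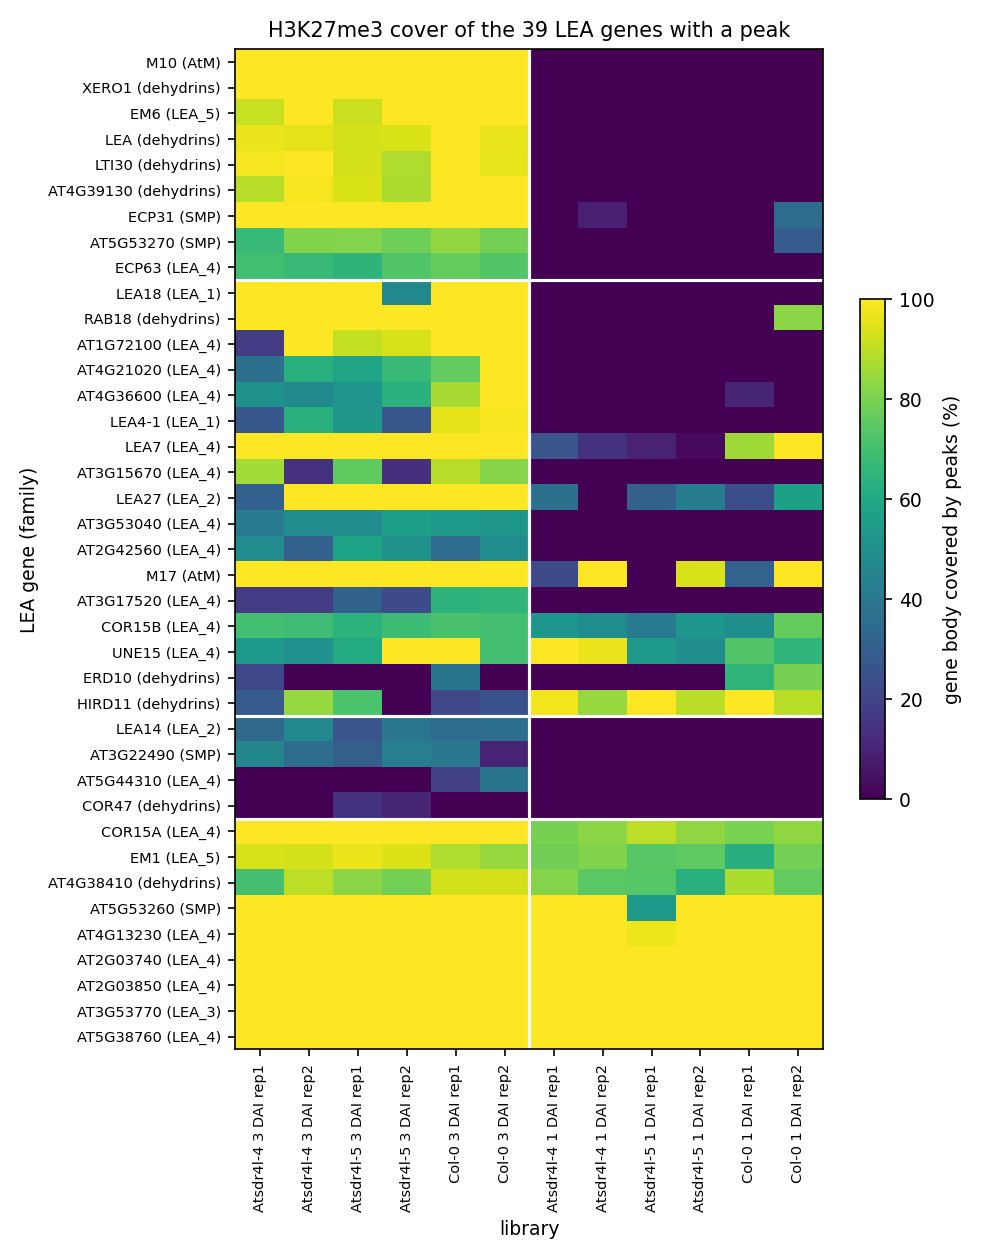
Percent of the gene body covered by H3K27me3 peaks (colour scale, 0 to 100%) in each library (columns, 3 DAI left and 1 DAI right, *Atsdr4l* alleles before Col-0) for the 39 LEA genes with a covered base (rows, with their family). White lines separate, from the top, the 9 genes marked in all libraries of 3 DAI and none of 1 DAI, 17 genes of mixed pattern, 4 covered but never marked and 9 marked in all 12 libraries.

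Promoter motifs of the genes marked at 3 DAI only are shown first, because G-boxes and RY motifs are bound by the seed regulators named above. Within 500 bases upstream of the start, on either strand, the G-box CACGTG was found in 23 of the 52 LEA genes (44.2%) and in 9.35% of all genes. The RY motif CATGCA was found in 16 (30.8%, against 17%), the ABRE core ACGTG, which lies within the G-box, in 41 (78.8%, against 35.5%), and the DRE core CCGAC, bound by CBF factors in the cold, in 26 (50%, against 21.4%). Of the 9 genes marked at 3 DAI only, 6 held a G-box and 4 an RY motif, and of the 9 marked in all 12 libraries 2 held a G-box and 1 an RY motif. A G-box was also found in 10 of the 17 genes that changed between libraries, 1 of the 4 covered but never marked and 4 of the 13 without a peak, and an RY motif in 4, 4 and 3 of these, so that both also occurred outside the genes marked at 3 DAI only. *LTI30*, one of the 9, held neither, and a site of each of the other 8 is given 5′ to 3′ in the direction of the gene, with the motif in capitals and positions in TAIR10.1:
*M10*, chr2:17209478-17209507, plus strand, G-box: accactggtggaCACGTGtaaacacgatag
*XERO1*, chr3:18941851-18941880, plus strand, G-box: ttacgtaatcgcCACGTGtgtcacttcaac
*EM6*, chr2:16780390-16780419, minus strand, G-box: aataaagtcagaCACGTGgcatgtcaccaa
*ECP63*, chr2:15358752-15358781, minus strand, G-box: gcatgaaaagtcCACGTGtcataccacgtc
AT4G39130, chr4:18228912-18228941, minus strand, G-box: tcgttactgcggCACGTGtcatgaccatgc
AT5G53270, chr5:21607393-21607422, minus strand, G-box: gcacggactatgCACGTGtctcaaagcttg
*ECP31*, chr3:7972934-7972963, minus strand, RY: tgatcccatactCATGCAcctctctttata
*LEA* (AT2G21490), chr2:9207158-9207187, minus strand, RY: acgtatcatatcCATGCAgattaacatgtc

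The *EM6* site lies 33 bases before the start, that of *XERO1* 56, that of AT4G39130 69, that of AT5G53270 107, that of *ECP63* 144 and that of *M10* 201. The RY motifs shown for *ECP31* and *LEA* lie 38 and 44 bases before the start, and *LEA* held another at 17 bases. A match is a stretch of letters and not a measured binding site.

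Cover was compared between time points by limma on the percent values of all 10227 genes with a covered base in any library, with Benjamini-Hochberg adjustment and a threshold of 0.05. On the mean over the genotypes, 26 of the 39 LEA genes tested rose and 1 fell at 3 DAI relative to 1 DAI. Of all genes tested, 21.0% rose and 2.01% fell. The median difference was 45.3 percentage points over these 39 genes and 1.36 over all genes tested. Because a gene with no peak in any library could not be tested, the 13 LEA genes without one are not among the 39. When time labels were exchanged within genotypes in an exact permutation test (two-sided), the smallest possible p, 0.00926, was reached for 24 LEA genes and for 17.2% of all genes tested. Adjusted over all genes this is 0.0538, so that no gene could pass by the exact test.

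On a list of 7 seed-type LEA genes, *EM6* (AT2G40170, chromosome 2, 16779552 to 16780368, minus strand), which encodes a small Em protein stored in the dry seed, had the largest difference between time points. Its body was covered over 91.6 and 100% in the *Atsdr4l-4* libraries, 91.8 and 100% in those of *Atsdr4l-5* and 100 and 100% in Col-0 at 3 DAI, and 0% in all 6 libraries of 1 DAI. The groups did not overlap, and the difference was 97.2 points (SE 1.91, limma adjusted p = 1.39e-07). At 1 DAI the mark lay nearby, since 28.9 to 42.1% of the 1 kb before the *EM6* start was under peaks in every library, and at 3 DAI that window was covered over 100% in all 6.

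*EM1* (AT3G51810, chromosome 3, 19214722 to 19215831, plus strand), the other Em gene, was instead marked at both time points. Cover was 93.9 and 93.4% in the *Atsdr4l-4* libraries, 96.9 and 94.6% in those of *Atsdr4l-5* and 88.2 and 84.4% in Col-0 at 3 DAI, against 78.4 and 80.9%, 74.0 and 75.3%, and 63.2 and 79.1% at 1 DAI. It rose by 16.8 points (SE 2.71, limma adjusted p = 0.00549). The call was lost in 2 of 20 alternatives, among them peaks of at least 2-fold enrichment (27.3 points, limma adjusted p = 0.233). The fold enrichment of its peak, which the peak caller gives relative to the local background, had a median of 3.14 at 3 DAI and 2.21 at 1 DAI, and the ranges over libraries, 2.79 to 3.36 and 1.95 to 2.66, did not overlap. The median over all peaks of a library was also higher at 3 DAI, 2.05 to 2.23 against 1.79 to 1.99 at 1 DAI.

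*ECP63* (AT2G36640) and *ECP31* (AT3G22500) are relatives of proteins first described in embryogenic cells of carrot. *ECP63* was covered over 65.0 to 76.3% at 3 DAI, with a median of 71.3%, and over 0% in every library of 1 DAI (difference 70.8 points, SE 1.43, limma adjusted p = 1.61e-07). All of the first part of the gene was covered and 41.6% of the rest. *ECP31* was covered over 100% in all 6 libraries of 3 DAI, while at 1 DAI 35.2% of it was covered in Col-0 replicate 2, 8.7% in *Atsdr4l-4* replicate 2 and none in the other 4 (difference 92.7 points, SE 5.87, limma adjusted p = 5.97e-05). AT2G42560, a LEA_4 gene of the seed type, rose by 45.3 points (SE 3.78, limma adjusted p = 0.00024) but passed 50% only in the *Atsdr4l-5* libraries of 3 DAI, with 58.1 and 50.9%. The other 4 libraries of 3 DAI lay between 30.8 and 48.7%.

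*M17* (AT2G41260) and *M10* (AT2G41280), seed-expressed neighbours 1998 bases apart, shared 1 peak in all 6 libraries of 3 DAI and in none of 1 DAI. Both bodies were covered over 100% in every library of 3 DAI. *M10* was covered over 0% in all of 1 DAI. *M17* was covered over 22.9 and 100% in the *Atsdr4l-4* libraries, 0 and 94.1% in those of *Atsdr4l-5* and 31.6 and 100% in Col-0 at 1 DAI. The library named replicate 2 was thus the high one in each genotype, and the difference of *M17* between time points, 41.9 points (SE 22.6), did not pass (limma adjusted p = 0.29). *RAB28* (AT1G03120), an SMP gene, had no peak in any library. In all, 5 of the 6 tested genes of the 7 on the seed-type list rose and none fell, against 21.0 and 2.01% of all genes tested. In each library 5 to 6 of the 7 were marked at 3 DAI and 1 to 2 at 1 DAI.

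Dehydrins, which bind water, membranes and metal ions, included 6 of 9 tested genes that rose and 1 that fell. Of all genes tested, 21.0% rose and 2.01% fell. *LTI30* (AT3G50970), induced by cold, and *XERO1* (AT3G50980), which is expressed in seeds, lie 313 bases apart and shared 1 peak in all 6 libraries of 3 DAI. *XERO1* was covered over 100% in all of these, *LTI30* over 88.2 to 100%, and neither had a covered base at 1 DAI. *LEA* (AT2G21490) was covered over 93.6 to 100% at 3 DAI and AT4G39130 over 87.5 to 100%, and both over 0% at 1 DAI. Their differences were 96.2 points (SE 0.615, limma adjusted p = 2.43e-10) and 95 points (SE 1.84, limma adjusted p = 1.3e-07). *XERO1* and *M10* had the same value in every library of a time point, so the spread in their test came from the other genes alone, and no p is given for them.

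*RAB18* (AT5G66400), the classical ABA-responsive dehydrin, had the highest median peak enrichment at 3 DAI of the LEA genes marked there, 4.04-fold (range 3.76 to 4.54). Its body was covered over 100% in all 6 libraries of 3 DAI. At 1 DAI it was covered over 0% in both *Atsdr4l-4* and both *Atsdr4l-5* libraries, and over 0 and 82.6% in Col-0. It rose by 86.2 points (SE 13.4, limma adjusted p = 0.00459). Of the 1 kb upstream, 12.4 to 25.0% was covered at 3 DAI and none at 1 DAI.

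*HIRD11* (AT1G54410), a histidine-rich dehydrin of vegetative tissue, was the LEA gene that fell on the mean over the genotypes. It was covered over 28.9 and 84.1% in the *Atsdr4l-4* libraries, 71.6 and 0% in those of *Atsdr4l-5* and 21.3 and 25.3% in Col-0 at 3 DAI, against 98.0 and 84.5%, 100 and 89.8%, and 100 and 89.1% at 1 DAI. Every library of 3 DAI was lower than every one of 1 DAI, but those of 3 DAI were widely spread. The difference was -55.0 points (SE 15.0, limma adjusted p = 0.0434), and it did not pass in 12 of 20 alternatives, 10 of which each left out 1 library (highest adjusted p 0.12). The value itself was -43.1 without *Atsdr4l-5* 3 DAI replicate 2. AT4G38410, a dehydrin gene marked in all 12 libraries, was covered over 70.6 to 93.4% at 3 DAI and 63.4 to 87.5% at 1 DAI (difference 8.8 points, SE 4.23, limma adjusted p = 0.221).

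On a list of 11 genes that respond to cold, drought or ABA in leaves, 5 of 8 tested rose and 1 fell. This compares with 21.0 and 2.01% of all genes tested. Per library, 4 to 5 of the 11 were marked at 3 DAI and 2 to 5 at 1 DAI. *COR15A* (AT2G42540) and *COR15B* (AT2G42530), cold-regulated proteins of the chloroplast stroma, lie 7 bases apart and shared 1 peak in all 12 libraries. *COR15A* was covered over 100% in all libraries of 3 DAI and over 79.4 to 89.9% at 1 DAI (difference 16.9 points, SE 1.33, limma adjusted p = 0.000177), a call lost with peaks of a -log10 q of at least 5 (31.9 points, limma adjusted p = 0.178). *COR15B* was covered over 64.6 to 71.2% and 41.2 to 76.2% (15.5 points, SE 4.75, limma adjusted p = 0.0644) and did not pass. The peak over the pair had a median width of 4663.5 bp at 3 DAI and, over *COR15A*, 2469 bp at 1 DAI.

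Several of the best known stress LEA genes had no peak in any library. These were *ERD14*, a dehydrin, *SAG21*, *DI21* and *LEA3* of the LEA_3 family, *LEA4-5* of LEA_1, *LEA26* of LEA_2 and all 3 PvLEA18 genes (AT2G23110, AT2G23120 and AT2G33690). *RAB28*, AT5G27980, AT2G18340 and AT3G02480 complete the 13. *LEA14* (AT1G01470), a LEA_2 gene induced by drought, was covered over 26.4 to 46.8% at 3 DAI, always over its first part, and over 0% at 1 DAI (36.4 points, SE 2.87, limma adjusted p = 0.000181). It rose without reaching 50% in any library, and no covered base was left to test with either stricter peak threshold.

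The remaining LEA_1, LEA_2 and SMP genes with a call were *LEA18*, *LEA27*, AT5G53270 and AT3G22490, beside *LEA4-1*. *LEA18* (AT2G35300) was covered over 46.7% in *Atsdr4l-5* replicate 2 and 100% in the other 5 libraries of 3 DAI, against 0% at 1 DAI (91.1 points, SE 8.64, limma adjusted p = 0.000446). *LEA27* (AT2G46140) was covered over 31.1% in *Atsdr4l-4* replicate 1 and 100% in the other 5, against 0 to 56.8% at 1 DAI (56.7 points, SE 13.9, limma adjusted p = 0.0293), and did not pass in 10 of 19 alternatives. AT5G53270 and its neighbour AT5G53260, SMP genes 596 bases apart, shared 1 peak in all 6 libraries of 3 DAI and in 1 of 1 DAI. AT5G53260 was marked throughout, while AT5G53270 was covered over 67.7 to 83.9% at 3 DAI and, at 1 DAI, over 29.0% in Col-0 replicate 2 and 0% in the others (73.7 points, SE 5.26, limma adjusted p = 0.000108). AT3G22490, which lies 781 bases from *ECP31* under the same peak, was covered over 9.8 to 45.7% at 3 DAI and 0% at 1 DAI (34.0 points, SE 5.57, limma adjusted p = 0.00575).

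In LEA_4, 10 of 17 tested genes rose, against 21.0% of all genes tested. AT1G72100 was covered over 17.8 to 100% at 3 DAI and 0% at 1 DAI (83.7 points, SE 13.3, limma adjusted p = 0.00511). The call was lost in 2 of 20 alternatives. In 1 of these, with weaker peaks than 2-fold dropped, the difference was 32.3 points (limma adjusted p = 0.441). AT3G53040 was covered over 41.1 to 55.6% at 3 DAI and 0% at 1 DAI (50.1 points, SE 1.68, limma adjusted p = 2.24e-06), and 96.0% of this gene's first part was covered against 4.2% of the rest. AT3G15670 was covered over 86.1 and 14.2% in the *Atsdr4l-4* libraries, 75.5 and 13.4% in those of *Atsdr4l-5* and 89.3 and 81.9% in Col-0 at 3 DAI, and 0% at 1 DAI. Its rise of 60.1 points (SE 15.4, limma adjusted p = 0.0351) did not pass in 11 of 20 alternatives, with the highest adjusted p at 0.104. The remaining LEA_4 genes that rose were *LEA7* (60.2 points, SE 3.21), AT3G17520 (36.6, SE 1.36), AT4G21020 (67.1, SE 5.95) and AT4G36600 (65.3, SE 3.36), and in LEA_1 *LEA4-1* (61 points, SE 7.16). Their values by library are given with the genotypes. These differences are means over the genotypes. That of *LEA7* was 79.5 points in *Atsdr4l-4*, 93.9 in *Atsdr4l-5* and 7.1 in Col-0, where it did not pass (limma adjusted p = 0.591). *COR47* rose by 4.2 points (SE 0.657, limma adjusted p = 0.00482), from peaks in *Atsdr4l-5* alone, and could not be tested with the stricter peak thresholds or with equal numbers of peaks, where no covered base was left. *ERD10* (-14 points, SE 7.58), AT5G44310 (9.7, SE 3.21) and AT5G53260 (7.7, SE 7.45) did not pass (limma adjusted p = 0.291, 0.082 and 0.576). In Col-0 alone, *ERD10* changed by -52.9 points (limma adjusted p = 0.0448) and AT5G44310 by 29.0 (limma adjusted p = 0.017). In *Atsdr4l-4* and *Atsdr4l-5*, *ERD10* changed by 10.9 and 0.0 points, and AT5G44310 by 0.0 in each. *UNE15* (AT4G13560) was covered over 50.4 to 100% at 3 DAI and 49.2 to 100% at 1 DAI, a difference of -0.6 points (SE 8.11, limma adjusted p = 1).

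AT2G03740, AT2G03850, AT3G53770 and AT5G38760 were covered over 100% of the body in all 12 libraries, and AT4G13230 over at least 97.3%. In the 9 genes marked throughout, the peak over the gene had a median width of 4663.5 bp at 3 DAI and 2469 bp at 1 DAI (*COR15A* being the middle gene at both), and a median enrichment of 2.71-fold and 2.06-fold. Over all peaks of a library the median enrichment was also higher at 3 DAI, 2.05 to 2.23 against 1.79 to 1.99 at 1 DAI. In the 9 genes marked at 3 DAI only, the peaks had a median width of 4002 bp and a median enrichment of 2.48-fold. The widths ranged from 863.5 to 7500.5 bp between genes. The median width is that of the peak shared by *LTI30* and *XERO1*, which counts for both. Among the 9 genes marked at 3 DAI only, 100% were covered 500 bp after the start and 55.6% 500 bp before it at 3 DAI, against 0 and 11.1% at 1 DAI. These genes were picked for cover of the body, so the values after the start follow largely from that choice.

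**Figure D3:**
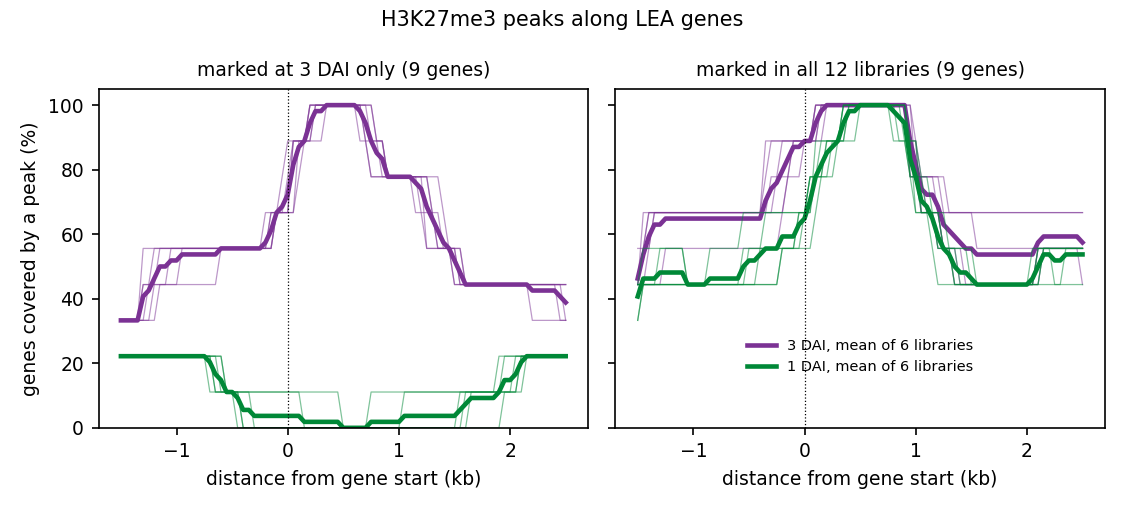
Share of genes covered by a peak (y axis, percent) by distance from the annotated gene start (x axis, kb; transcription runs to the right) for the 9 LEA genes marked at 3 DAI only (left panel) and the 9 marked in all 12 libraries (right panel). Thin lines are single libraries and thick lines the mean of the 6 libraries at 3 DAI (purple) or 1 DAI (green). At 500 bp after the start, 100% of the genes in the left panel are covered at 3 DAI and 0% at 1 DAI. The genes of both panels were picked for cover of the body, so the values after the start follow largely from that choice.

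Genotypes were compared next, to ask whether LEA genes depend on *AtSDR4L* for the mark. With 4 *Atsdr4l* and 2 Col-0 libraries per time point only 15 relabellings exist. The smallest p of an exact permutation test is then 0.0667, so the genotype calls rest on limma. Its SE pools the spread of the groups at both time points. For a gene constant at the other time point, the SE can therefore be too small. At 1 DAI, 11.8 ± 0.5 LEA genes were marked in *Atsdr4l* (SD, n = 4) and 15.0 ± 2.83 in Col-0 (SD, n = 2). At 3 DAI these values were 29.0 ± 2.45 and 32.0 ± 0. As shares of the LEA genes, *Atsdr4l* and Col-0 had 22.6 and 28.8% at 1 DAI, and 55.8 and 61.5% at 3 DAI. Over all genes the shares were 21.5 and 21.3% at 1 DAI, and 25.3 and 25.9% at 3 DAI. One *Atsdr4l-5* library of 3 DAI reached 32, as in Col-0. The mean difference over both time points was -3.12 genes, against an SD of 1.71 between replicates.

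At 1 DAI, 2 of the 39 tested LEA genes had lower cover in *Atsdr4l* and none had higher cover, while 0.714% of all genes tested were lower and 0.704% higher. In *LEA7* (AT1G52690, LEA_4; chromosome 1, 19619724 to 19621534, plus strand), 26.3 and 14.6% of the body was covered in the *Atsdr4l-4* libraries and 9.8 and 2.4% in those of *Atsdr4l-5*, against 85.8 and 100% in Col-0. The difference was -79.6 points (SE 4.82, limma adjusted p = 0.000727), each allele passed alone, and the call held in all 20 alternatives (adjusted p 0.000274 to 0.0251). At 3 DAI all 6 libraries stood at 100%, the upper end of the scale, so a difference in the amount of the mark would not show there. Those libraries also added no spread to the SE. *LEA7* lies in a domain of about 15706 bp at 3 DAI (median width). The gene before it, AT1G52680, was covered over 50.4 to 100% in every library, and the gene after it, AT1G52695, which overlaps its end, over 88.6 to 100%. In the *Atsdr4l* libraries of 1 DAI a single peak touched *LEA7*, over 43 to 476 bases, while in Col-0 a peak covered 1554 and 1811 bases of it.

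*ERD10* (AT1G20450), an acidic dehydrin induced by cold and dehydration, was covered over 0% in all 4 *Atsdr4l* libraries of 1 DAI, against 65.6 and 79.3% in Col-0 (-72.4 points, SE 11.4, limma adjusted p = 0.0434). The peaks were weak, with 1.55- and 1.65-fold enrichment, and the call was lost in 12 of 18 alternatives (highest adjusted p 0.196), among them those without either Col-0 library of 1 DAI. At 3 DAI *ERD10* was covered over 21.8 and 0% in the *Atsdr4l-4* libraries, 0% in both of *Atsdr4l-5* and 39 and 0% in Col-0. Its neighbour *COR47* (AT1G20440), a dehydrin of the same kind, had no covered base at 1 DAI. Counting genes whose 4 *Atsdr4l* values all lay below both Col-0 values, the same 2 LEA genes (5.13% of the 39) were found at 1 DAI, against 3.98% of all genes tested. For the reverse order there was none, against 4.73%.

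At 3 DAI, 3 LEA genes had lower cover in *Atsdr4l* and 1 had higher cover, while 1.9% of all genes tested were lower and 0.332% higher. In 8 LEA genes (20.5% of the 39) all 4 *Atsdr4l* values lay below both Col-0 values, against 8.01% of all genes tested. These were *LEA4-1*, *ECP63*, AT3G17520, AT4G21020, AT4G36600, AT4G38410, AT4G39130 and AT5G44310. The reverse held in 1 gene, *EM1* (2.56%, against 2.13%). Some of the 8 were separated by little. The highest *Atsdr4l* and lowest Col-0 values were 73.0 and 73.1% in *ECP63*, 98.5 and 100% in AT4G39130, and 90.0 and 93.2% in AT4G38410. These genes did not pass (limma adjusted p = 0.49, 0.49 and 0.705). The median difference was -2.58 points over the 39 LEA genes and 0 over all genes tested.

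AT3G17520 (LEA_4; chromosome 3, 5999174 to 6000447, minus strand) was covered over 17.9 and 17.2% in the *Atsdr4l-4* libraries and 31.0 and 22.7% in those of *Atsdr4l-5*, against 64.8 and 65.9% in Col-0. The difference was -43.1 points (SE 2.05, limma adjusted p = 8.59e-05), each allele passed alone, and the call held in all 20 alternatives (adjusted p 1.93e-08 to 0.003). At 1 DAI no library had a covered base in the gene, so the 1 DAI groups added no spread to the SE. The gene next to its start, AT3G17530, was covered over 100% in all 12 libraries, and the 1 kb upstream over 64.6 to 67.8% at 1 DAI and 100% at 3 DAI. The part of AT3G17520 covered at 3 DAI was the end nearest this domain, 62.9% of the first part of the gene and 10.2% of the rest on average over the 6 libraries.

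AT4G36600 (LEA_4; chromosome 4, 17263564 to 17265172, plus strand) was covered over 51.5 and 47.4% in the *Atsdr4l-4* libraries and 52.4 and 64.0% in those of *Atsdr4l-5*, against 86.9 and 100% in Col-0 (-39.7 points, SE 5.04, limma adjusted p = 0.0114). The call was lost with 1 kb upstream included (-41.8 points, limma adjusted p = 0.241) and on the arcsine scale (limma adjusted p = 0.114). Here too the neighbour, AT4G36610, which lies 159 bases beyond the end of the gene, was covered over 76.6 to 100% in every library, and cover was 99.1% in the later part of AT4G36600 and 35.0% in the first part at 3 DAI. AT4G21020, 823 bases from AT4G21010, a gene covered over 100% throughout, was covered over 37.1 and 63.4% in the *Atsdr4l-4* libraries and 58.5 and 67.4% in those of *Atsdr4l-5*, against 75.9 and 100% in Col-0, and did not pass (-31.3 points, SE 8.92, limma adjusted p = 0.267).

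**Figure D4:**
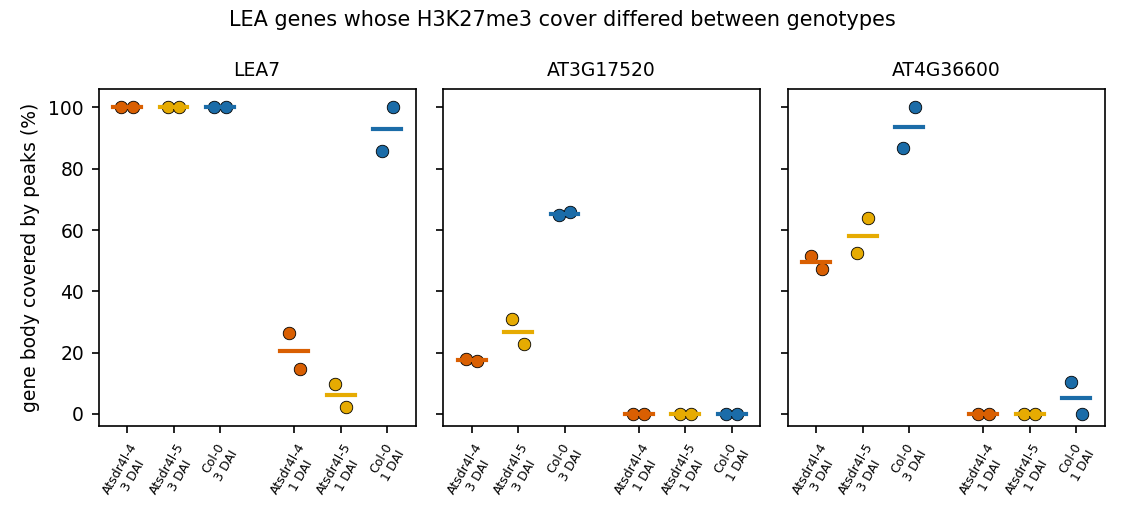
Percent of the gene body covered by H3K27me3 peaks (y axis) in each library for *LEA7*, AT3G17520 and AT4G36600, with 1 point per library and a line at the mean of each genotype and time point (n = 2). In *LEA7* the *Atsdr4l* libraries of 1 DAI lie at 2.4 to 26.3% and those of Col-0 at 85.8 and 100%; in AT3G17520 the *Atsdr4l* libraries of 3 DAI lie at 17.2 to 31.0% and those of Col-0 at 64.8 and 65.9%.

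*LEA4-1* (AT1G32560, LEA_1), by contrast, had no mark on either neighbouring gene in any library. It was covered over 27.6 and 63.6% in the *Atsdr4l-4* libraries and 52.8 and 27.2% in those of *Atsdr4l-5* at 3 DAI, against 96.0 and 99.0% in Col-0, and over 0% in all libraries of 1 DAI. The difference of -54.7 points (SE 10.7) did not pass (limma adjusted p = 0.0745). It was -97.5 points with peaks of at least 2-fold enrichment (limma adjusted p = 6.36e-10) and -84.3 with a -log10 q of at least 5 (limma adjusted p = 0.0208), and passed in 7 of 20 alternatives. Peaks at *LEA4-1* were 2.39- and 2.25-fold enriched in Col-0 and 1.5- to 1.86-fold in *Atsdr4l*. AT3G15670, given above, likewise did not pass with all peaks and passed with either of these peak thresholds, with -78.7 points in both (limma adjusted p = 0.000242 and 0.000182). With 1 kb upstream included it was -40.4 points (limma adjusted p = 0.000145).

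AT5G44310 was covered over 0% in all 4 *Atsdr4l* libraries of 3 DAI, against 19.1 and 38.9% in Col-0 (-29.0 points, SE 4.82, limma adjusted p = 0.0374), and *COR47* over 0% in both *Atsdr4l-4* libraries and 14.6 and 10.5% in those of *Atsdr4l-5*, against 0% in both of Col-0 (6.3 points, SE 0.986, limma adjusted p = 0.0294). The 1 DAI groups, all at 0%, added no spread to either SE. Neither gene was marked in any library, and each call was lost in 12 alternatives (highest adjusted p 0.113 and 0.112). *RAB18* at 1 DAI, where 1 Col-0 library held the only peak, differed by -41.3 points (SE 20.1, limma adjusted p = 0.755). Without Col-0 replicate 1, which had no peak there, the difference was -82.6 points, a value that sets the 4 *Atsdr4l* libraries against 1 Col-0 library.

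The test of whether the genotype difference itself differed between time points passed for 2 LEA genes, 1 in each direction, beside 0.626% of all genes tested with a higher and 1.68% with a lower difference at 3 DAI. *LEA7* had 79.6 points (SE 6.81, limma adjusted p = 0.00191), all of it from 1 DAI, and AT3G17520 -43.1 points (SE 2.89, limma adjusted p = 0.000592), all of it from 3 DAI. The genes that differed between genotypes had G-boxes within 500 bases of their start, of which the ones nearest the start are given:
*LEA7*, chr1:19619494-19619523, plus strand, 212 bases before the start: aacgtgagtcacCACGTGtctaacatcttc
AT3G17520, chr3:6000584-6000613, minus strand, 148 bases before the start: ttgtttgtgtaaCACGTGtcaagaaccact
AT4G36600, chr4:17263491-17263520, plus strand, 55 bases before the start: tcatcgaataacCACGTGtcttacaataac
AT5G44310, chr5:17849590-17849619, minus strand, 65 bases before the start: ttacaacatcaaCACGTGtcgaattcgtac
*ERD10*, chr1:7090002-7090031, minus strand, 407 bases before the start: attatttattttCACGTGgcatgatggcta
*COR47*, the exception, had an RY motif and no G-box in this window. With a G-box in 44.2% of all LEA genes, these matches set no gene apart from the rest of the list.

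Other seed genes served for comparison. Of 9 genes of 2S albumins and cruciferins, the seed storage proteins, all 9 were marked in every library of 3 DAI and 1 to 6 at 1 DAI. Of 5 oleosins, which coat oil bodies, 2 to 3 were marked at 3 DAI and 0 to 1 at 1 DAI. Of 6 regulators of LEA genes (*ABI3*, *ABI5*, *EEL*, *FUS3*, *LEC1* and *LEC2*), 3 to 4 were marked at 3 DAI and 1 to 2 at 1 DAI. By the same limma fit 5 of 9 storage protein genes, 4 of 5 oleosins and 3 of 4 tested regulators rose at 3 DAI. Beside these, 26 of 39 LEA genes and 21.0% of all genes tested rose. At 3 DAI, 2 of 5 oleosins, 1 of 9 storage protein genes and 1 of 4 tested regulators were lower in *Atsdr4l* than in Col-0. The same held for 3 of 39 LEA genes and 1.9% of all genes tested. At 1 DAI 1 of the 4 regulators was lower, beside 2 of 39 LEA genes and 0.714% of all genes tested.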

How the data were processed

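Per the study's methods, fastp trimming was followed by Bowtie 2 alignment to TAIR10, and the authors kept reads of a mapping quality above 10. Broad peaks were then called by MACS2, library by library, with the joined mock IgG reads as control, so replicates were not pooled. The submitters' processing notes name bcl2fastq 2.19, fastp 0.23.4, SAMtools 1.6 and MACS2 2.2.6 and 2.2.7.1. The deposited lists hold, for each peak, a score, the fold enrichment (a linear ratio to local background) and the -log10 of p and q, as the authors' MACS2 gave them, averaged over the peak. The score lay within 1 of 10 times the -log10 q. No counts are given, so depth is unknown, and the 2 replicates per group limit the precision. It is not stated whether replicates came from separate cultures, so p-values measure only the spread between these libraries. The mock IgG samples were not analysed here.

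Peaks were overlaid on genes of TAIR10.1 from RefSeq, whose 5 nuclear chromosomes hold every peak end. The percent of each body under peaks was fitted with limma 3.58.1 in R 4.3.3, as 6 group means over 12 libraries (residual df 6, prior df 0.351), on 10227 genes with a covered base. Differences between days and between the mean of both alleles and Col-0 were contrasts of these means. Exact two-sided permutation tests exchanged libraries between time points within genotypes, or between genotypes within a time point. Known shifts were placed in simulated data (10227 genes) for the comparison of 3 with 1 DAI, in genes with a mean cover of 20 to 40%. Of these, 19% of 20-point and 53% of 40-point shifts were recovered, so many moderate changes are missed in such genes. The rates were not measured for genes without cover at 1 DAI. Tables were made with Python 3.11.15, numpy 2.4.6, pandas 2.3.3 and scipy 1.17.1, and figures with matplotlib 3.10.9. Upstream motifs were searched on both strands in 500 bases before each start.

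Members, lists and tests were chosen with earlier results of these data known. Genes were named by rule: every LEA gene marked in a library or called in a contrast, the largest differences, and well-known members whatever their values; genes without a peak were added for a full account. Alternatives were stricter peak thresholds (-log10 q of at least 5, or fold of at least 2), equal numbers of peaks, all genes, an arcsine scale, 1 kb upstream included, each library left out, a replicate block, and shares of 25 and 75% of the body. Leaving out genes that are constant over all libraries was chosen after seeing the data.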

Additional observations from a re-analysis of the deposited data

Results flagged for a closer look

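In *LEA7* the difference of *Atsdr4l* from Col-0 changed by 79.6 percentage points of the gene body between 3 and 1 DAI (limma, adjusted p = 0.00191), being -79.6 points at 1 DAI and 0 at 3 DAI, where all 6 libraries were at the upper end of the scale. In AT3G17520 it changed by -43.1 points (limma, adjusted p = 0.000592), being -43.1 at 3 DAI and 0 at 1 DAI, where no library had a peak in the gene. Each was singled out because the genotype difference itself differed between the time points. With 1 kb upstream included the result for *LEA7* was 67.8 points and did not pass (limma, adjusted p = 0.0617), and it passed in the other 19 of 20 alternatives. That for AT3G17520 passed in all 20 (highest adjusted p 0.0106).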

How the results depend on the processing

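The count of LEA genes whose cover changed between 3 and 1 DAI (27) stayed within 1.5 times its value in all alternatives, with 24 to 27 when each library was left out, and 19 of the 27 genes were called in every alternative. The difference in marked LEA genes between 3 and 1 DAI, 17.2 per library, was 20.2 when 25% of the body counted as marked, 13.8 with 75%, and 16.5 to 17.8 with each library left out. The difference between *Atsdr4l* and Col-0 was -4.12 to -2.12 with each library left out.

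Counts between genotypes were small and moved. At 1 DAI the 2 genes became 1 (*LEA7*) with -log10 q of at least 5, with fold of at least 2, with all genes and on the arcsine scale, and 1 to 5 as libraries were dropped in turn: 5 without Col-0 1 DAI replicate 1, 4 without *Atsdr4l-5* 1 DAI replicate 2, and 1 on dropping any 1 of the other *Atsdr4l* libraries. At 3 DAI the 4 genes became 2 with all genes, and 2 to 5 as libraries were dropped in turn (2 on dropping any 1 of the 1 DAI libraries). The 2 genes whose genotype difference differed between time points became 5 with -log10 q of at least 5, 6 with fold of at least 2, 4 on the arcsine scale, and 2 to 5 as libraries were dropped in turn: 5 without Col-0 3 DAI replicate 1 and 4 without Col-0 1 DAI replicate 1, *Atsdr4l-5* 1 DAI replicate 2, Col-0 3 DAI replicate 2, *Atsdr4l-4* 3 DAI replicate 2 or *Atsdr4l-5* 3 DAI replicate 1. *ECP31* at 1 DAI reversed to 2.18 points without Col-0 replicate 2 and was -33.0 without Col-0 replicate 1, each against the 1 Col-0 library left. Leaving out any library leaves its group with 1, which is assumed to vary like the other groups. The cause was not tested in any of these.

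In the cover of gene bodies no general pairing by replicate number was seen, since deviations of same-numbered libraries correlated at -0.059 to 0.088 over 7418 genes. A sharing limited to some genes would not show in these correlations, and *M17* and the storage protein genes did split by replicate number at 1 DAI. Peak enrichment split by replicate number over whole libraries at 1 DAI. There the library median was 1.79- to 1.87-fold for replicate 1 libraries, whereas replicate 2 libraries had 1.93- to 1.99-fold. At 3 DAI replicate 2 had the higher median only for *Atsdr4l-5* (2.23 against 2.12). The source of this split was not tested. With the replicate block, 23 LEA genes were called between time points, 1 between genotypes at 1 DAI, 2 at 3 DAI, and 2 for the difference between these. Depth is unknown, so weak peaks could not be told from peaks missed.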

Other observations

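Storage protein genes at 1 DAI split by replicate number as *M17* did. Of the 9 genes, 1 was marked in replicate 1 and 4 in replicate 2 of *Atsdr4l-4*, 1 and 5 in *Atsdr4l-5*, and 1 and 6 in Col-0. No label gives what the replicate numbers share, and the split was seen before it was counted. Over all LEA genes, replicates 1 and 2 had 12 and 12 marked in *Atsdr4l-4*, 11 and 12 in *Atsdr4l-5*, and 13 and 17 in Col-0. Replicate 2 was thus level or higher in each genotype, and clearly higher only in Col-0.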
